A study of Homo sapiens with 7 samples.

Results

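Immediate early genes are switched on within minutes of a stimulus by transcription factors that are already present in the cell, without new protein synthesis. The best known encode Fos and Jun proteins, which pair through leucine zippers to form the transcription factor AP-1, and others encode zinc finger factors and feedback regulators. Their mRNAs are short-lived, and in β-cells they are known to respond to glucose, calcium and cAMP. The genes described here are FOS, FOSB, JUN, JUNB, JUND, EGR1, ATF3, IER2, KLF6 and DUSP1, a list set by symbol and matched to Ensembl IDs. All 10 were found among the 66025 gene IDs of the count table.

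RNA-seq had been performed on β-like cells derived in vitro from H1, an established human embryonic stem cell line, and sorted by flow cytometry. In the iKD2 line doxycycline (Dox) induces an shRNA that targets METTL14, part of the methyltransferase complex for N6-methyladenosine (m6A), and in the iSCR line it induces a scramble shRNA. The 3 groups were iKD2 Dox+ (METTL14 shRNA, with Dox, n = 3, lettered a, b and c), iKD2 Dox- (the same line without Dox, n = 2, lettered b and c) and iSCR Dox+ (scramble, with Dox, n = 2, lettered a and b). Both lines were made by lentiviral transduction and puromycin selection, and each shRNA is represented by 1 line. No scramble library without Dox was analysed here, so that Dox, line and shRNA cannot be told apart where all libraries with Dox are set against those without. Before lysis, the cells of all groups had been harvested with an enzyme, incubated with a fluorescent zinc dye at body temperature and sorted.

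Total counts ranged from 14875294 to 20638974 per library. Levels are in CPM, the counts after TMM scaling to one library size, and tests are edgeR quasi-likelihood tests with Benjamini-Hochberg adjustment over 22926 genes. METTL14 itself was at 18.7 (a), 16.3 (b) and 49.1 (c) CPM in iKD2 Dox+, 39.4 (b) and 22.6 (c) CPM in iKD2 Dox-, and 36.1 (a) and 32.2 (b) CPM in iSCR Dox+. The highest METTL14 level was therefore in the library labelled iKD2 Dox+ c, and the log2 fold change of METTL14 was -0.14 against iKD2 Dox- and -0.28 against iSCR Dox+ (adjusted p = 1 and 0.963). This library enters each mean and test of its group. The β-like label was checked against INS, which encodes insulin and was at 11365 to 22298 CPM, CHGA, a secretory granule protein at 12446 to 17941 CPM, and PDX1, a β-cell transcription factor at 71.1 to 190 CPM, all present in every library. Of the other β-like markers, IAPP, the islet amyloid peptide, was at only 5.66 to 29.4 CPM and G6PC2 at 0 to 8.92 CPM, while GCG, the hormone of α-cells, was at 5039 to 12846 CPM. In bulk libraries of this kind, fewer cells of a type and less RNA per cell cannot be told apart.

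The 10 genes lie on chromosomes 14 (FOS), 19 (FOSB, JUNB, JUND and IER2), 1 (JUN and ATF3), 5 (EGR1 and DUSP1) and 10 (KLF6). In GENCODE 29 on GRCh38, FOS spans 75278774 to 75282230 of chromosome 14 on the plus strand, and FOSB spans 45467995 to 45475179 of chromosome 19 on the plus strand. EGR1 spans 138465490 to 138469315 of chromosome 5 on the plus strand, and DUSP1 spans 172768090 to 172771195 of the same chromosome on the minus strand. ATF3, at 212565334 to 212620777 of chromosome 1 on the plus strand, is by far the longest of the list. The genes are compact: their median span was 3683 bp, where that of the 14576 tested coding genes was 34210 bp. JUN, JUNB, JUND and IER2 have a single exon in the coding transcript used here, 40.0% of the list against 2.76% of tested coding genes. JUNB overlaps exons of HOOK2, and IER2 those of AC011446.2, each on the opposite strand. The strand setting of the counting is not given in the sources used here, so that reads of these overlapping stretches cannot be told apart.

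The proximal promoters are shown because their letters hold motifs through which stimuli are known to reach these genes. Whether the motifs bear on the differences between groups was not tested. The windows run from 250 bases before to 50 bases after the RefSeq start (GRCh38.p14), 5′ to 3′ on the coding strand. FOSB and EGR1 were higher in every library with Dox than in every library without, and FOS was not. DUSP1 was at a log2 fold change of -0.08 (95% CI -0.53 to 0.37) with Dox against without. Capitals mark TGACG on either strand (as CGTCA on the other), which is the core of the cAMP response element, and, in EGR1, the CArG box bound by serum response factor. The windows are chr14:75278578-75278877 on the plus strand for FOS, chr19:45467746-45468045 on the plus strand for FOSB, chr5:138465229-138465528 on the plus strand for EGR1 and chr5:172771146-172771445 on the minus strand for DUSP1.
FOS: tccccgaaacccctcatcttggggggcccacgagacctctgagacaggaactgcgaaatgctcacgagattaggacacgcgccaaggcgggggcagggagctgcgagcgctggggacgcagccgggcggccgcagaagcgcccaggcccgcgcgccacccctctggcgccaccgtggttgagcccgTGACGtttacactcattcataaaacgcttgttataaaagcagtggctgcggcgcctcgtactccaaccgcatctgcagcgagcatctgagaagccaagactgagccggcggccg
FOSB: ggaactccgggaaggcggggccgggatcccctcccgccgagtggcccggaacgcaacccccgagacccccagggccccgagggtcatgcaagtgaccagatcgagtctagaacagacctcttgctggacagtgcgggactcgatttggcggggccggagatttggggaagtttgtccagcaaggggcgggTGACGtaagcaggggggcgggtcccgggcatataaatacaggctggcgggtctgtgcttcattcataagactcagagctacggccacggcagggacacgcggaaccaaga
EGR1: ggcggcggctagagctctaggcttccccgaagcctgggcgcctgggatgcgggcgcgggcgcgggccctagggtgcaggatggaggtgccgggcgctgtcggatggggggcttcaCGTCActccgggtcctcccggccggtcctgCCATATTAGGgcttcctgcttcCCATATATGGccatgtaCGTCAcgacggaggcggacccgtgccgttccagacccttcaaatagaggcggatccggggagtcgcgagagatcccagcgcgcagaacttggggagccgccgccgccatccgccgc
DUSP1: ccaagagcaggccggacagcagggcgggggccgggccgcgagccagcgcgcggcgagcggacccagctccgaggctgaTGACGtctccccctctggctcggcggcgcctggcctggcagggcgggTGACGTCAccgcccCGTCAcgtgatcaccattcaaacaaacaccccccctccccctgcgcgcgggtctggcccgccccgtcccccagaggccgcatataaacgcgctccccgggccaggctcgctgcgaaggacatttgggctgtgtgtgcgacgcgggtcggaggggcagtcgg

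TGACG was present on one strand or the other in the windows of 8 of the 10 genes, and in 24.6% of 35116 promoters of the same length. ATF3, for which the windows of 2 annotated starts were searched, and KLF6 held none in these windows. Other starts of ATF3 were not searched, so that the motif is not shown to be absent from its promoters. The full palindrome TGACGTCA, which is counted as 2 overlapping TGACG matches, was in the windows of JUND and DUSP1 and in 1.85% of promoters. EGR1 held 2 CArG boxes, a motif found in 1.29% of promoters and in no other window of the list. Sequence outside these windows was not searched, so that CArG boxes are not shown to be absent from FOS or the other members. GCGNGGGCG, the site bound by EGR1 itself, was in EGR1 and KLF6 and in 9.43% of promoters. TGANTCA, a common form of the AP-1 site, was in none of these windows and in 7.71% of promoters. This pattern does not cover other forms of the site, so that AP-1 sites are not shown to be absent. All motifs were searched on both strands.

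Short motifs of the transcripts are given because they bear on mRNA decay and on m6A. ATTTA, the core of AU-rich elements, occurred in the 3′ UTR of 9 of the 10 genes, from 1 copy in JUND and EGR1 to 6 in KLF6, with IER2 the exception, and in 68.7% of tested coding genes. Per kilobase of 3′ UTR the median was 2.01 copies for the list and 1.55 for tested coding genes, and FOS and DUSP1 held the most with 6.20 and 5.95. GGACT, a frequent form of the m6A consensus, was absent from the EGR1 transcript and present in the other 9, as in 91.8% of tested coding genes, at 0.549 per kilobase in JUNB to 2.39 in IER2. Its median density was 1.40 per kilobase in the list and 0.948 in tested coding genes. Methylation itself was not measured in these libraries.

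All 10 genes were abundant. Together they took 0.806% to 1.21% of all counts in a library, and their ranks by mean CPM among the 22926 tested genes ran from 19 (JUN) and 23 (EGR1) to 302 (ATF3) and 318 (KLF6). JUN, one of the Jun proteins of AP-1, averaged 2679 CPM over the 7 libraries, EGR1 2322 CPM, FOS 1423 CPM and FOSB 855 CPM. Per kilobase of exon, JUN (757 CPM per kb) and EGR1 (740 CPM per kb) stood at the top, followed by FOS (439) and JUND (372), and ATF3 (79.0) and KLF6 (51.0) at the bottom. DUSP1 (251), JUNB (224), IER2 (168) and FOSB (154) lay between these. The length used is that of the merged exons of all annotated transcripts. It is 3238 bp for FOS, against 2158 bp in its coding transcript, while EGR1 has 3138 bp in both. Order and overlap hold for this length only, and other lengths were not examined. On this scale the ranges over the 7 libraries of JUN and EGR1 overlapped, as did those of FOS and JUND and of each pair of neighbours from DUSP1 down to KLF6, whereas EGR1 and FOS, and JUND and DUSP1, had ranges that did not overlap. The lowest count of any of these genes in any library was 2922 (KLF6), where counting error alone is 1.85% of the value, so that depth did not limit these measurements. PCR copies are not independent molecules, and this figure covers counting error only.

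The libraries did not deviate evenly. In 8 of the 10 genes the lowest of the 7 libraries was iKD2 Dox- b, with KLF6 lowest in iKD2 Dox- c and DUSP1 lowest in iKD2 Dox+ a. In 6 genes the highest was the library labelled iKD2 Dox+ c. The summed level of the list was 9976 (a), 10230 (b) and 11890 (c) CPM in iKD2 Dox+, 8105 (b) and 9321 (c) CPM in iKD2 Dox-, and 10904 (a) and 9828 (b) CPM in iSCR Dox+. Both libraries without Dox thus lay below all 5 with Dox in the sum. The spread within groups, as SD of log2(CPM + 1), had a median of 0.19 over the 10 genes, from 0.06 for JUND to 0.36 for KLF6, and also of 0.19 over the 300 tested genes whose mean level lay between those of the lowest and highest member.

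**Figure D1:**
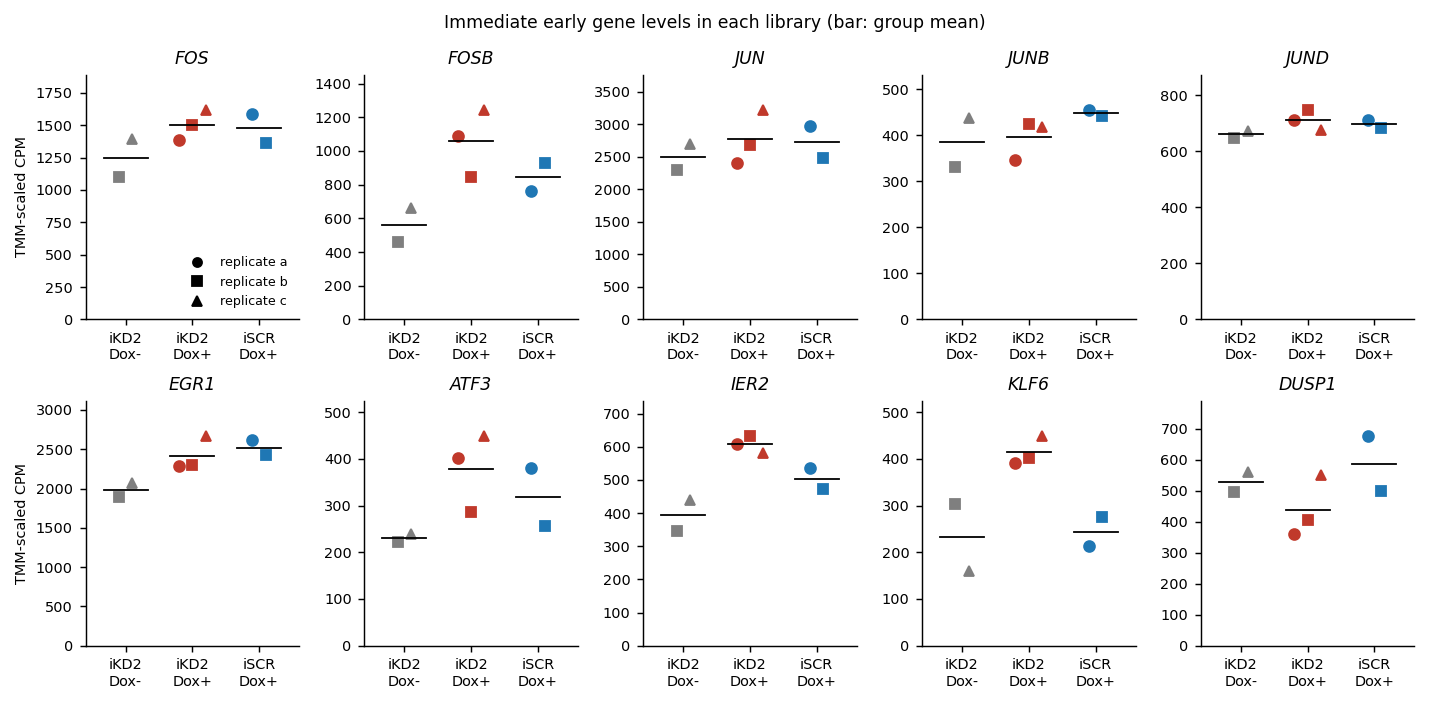
TMM-scaled CPM (vertical axes, from 0) of each of the 10 genes in the 7 libraries, by group (horizontal axes), with a symbol for each replicate letter and a bar at the group mean. FOSB, EGR1, ATF3 and IER2 are lower in both iKD2 Dox- libraries than in all others, while FOS, JUN, JUNB and DUSP1 overlap between iKD2 Dox+ and iKD2 Dox-.

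The first comparison asked how these genes differed when the METTL14 shRNA was induced within one line. No member passed an adjusted p of 0.05 between iKD2 Dox+ and iKD2 Dox-, where 0.0393% of all genes did (9 of 22926). At an unadjusted p under 0.05 there were 5 of the 10, all higher in iKD2 Dox+, and 852 of 22926 genes (3.72%) in either direction. Of the 1877 genes with a mean of at least 100 CPM, 131 were higher and 60 lower at that p. DESeq2 called 3 members, FOSB, IER2 and KLF6, among 218 genes. Of the 10, 9 had a log2 fold change above 0, with a median of 0.28 (0.17 without iKD2 Dox- b, 0.40 without iKD2 Dox- c), where the median of all genes was 0.01. In 6 of them (FOSB, JUND, EGR1, ATF3, IER2 and KLF6) the lowest iKD2 Dox+ library was above the highest iKD2 Dox- library, as it was in 8.72% of all genes and in 16.2% of genes with a mean of at least 100 CPM. Leaving out a library can only add to such a count, and without the library labelled iKD2 Dox+ c it was 6 of the 10, against 14.7% of all genes and 23.0% of those with a mean of at least 100 CPM.

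The Fos proteins bind DNA mainly as partners of Jun proteins. FOSB was at 1086 (a), 847 (b) and 1246 (c) CPM in iKD2 Dox+, 461 (b) and 659 (c) CPM in iKD2 Dox-, and 761 (a) and 926 (b) CPM in iSCR Dox+. The iKD2 Dox- libraries were the lowest of the 7 and the groups with and without Dox did not overlap. Its mean was 1060 ± 201 CPM (SD, n = 3) in iKD2 Dox+ and 560 ± 140 CPM (SD, n = 2) in iKD2 Dox-, a ratio of 1.89. The log2 fold change of 0.92 (SE 0.20, 95% CI 0.50 to 1.34) had an unadjusted p of 1.78e-04 and an adjusted p of 0.158 by edgeR. FOSB was the member nearest to the threshold, and it passed in 3 of 14 alternatives, with adjusted p-values from 5.34e-04 to 1 over all of them. Without the library labelled iKD2 Dox+ c its log2 fold change was 0.78.

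FOS was at 1387 (a), 1505 (b) and 1621 (c) CPM in iKD2 Dox+, 1102 (b) and 1394 (c) CPM in iKD2 Dox-, and 1587 (a) and 1365 (b) CPM in iSCR Dox+. One iKD2 Dox- library lay among those with Dox, so that the groups overlapped. The 95% CI of its log2 fold change of 0.27 (SE 0.16) ran from -0.06 to 0.60, with an adjusted p of 1.

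Among the Jun proteins, which can pair with one another or with Fos, differences were small. JUN was at 2400 (a), 2678 (b) and 3228 (c) CPM in iKD2 Dox+, 2301 (b) and 2691 (c) CPM in iKD2 Dox-, and 2971 (a) and 2485 (b) CPM in iSCR Dox+. JUNB was at 347, 425 and 419 CPM, at 332 and 437 CPM, and at 456 and 442 CPM in that order of libraries. For both genes the libraries of the 3 groups were interleaved, apart from JUNB in iSCR Dox+, where both libraries lay above all 5 of the iKD2 line. The log2 fold changes between iKD2 Dox+ and iKD2 Dox- were 0.15 for JUN (95% CI -0.16 to 0.46) and 0.05 for JUNB (95% CI -0.38 to 0.47), and JUNB turned to -0.14 when iKD2 Dox- b was left out. JUND, the Jun protein with the steadiest expression in most cells, was at 711 (a), 750 (b) and 675 (c) CPM in iKD2 Dox+, 649 (b) and 674 (c) CPM in iKD2 Dox-, and 714 (a) and 683 (b) CPM in iSCR Dox+. Its lowest library with Dox exceeded the highest without by 0.926 CPM, so that the groups were apart by a margin far below their spread, with a log2 fold change of 0.11 (SE 0.17) between iKD2 Dox+ and iKD2 Dox-. The highest JUND library exceeded the lowest by 1.16-fold, against 2.70-fold for FOSB and 2.82-fold for KLF6.

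EGR1, a zinc finger factor that is induced by growth factor and calcium signals, was at 2286 (a), 2299 (b) and 2671 (c) CPM in iKD2 Dox+, 1892 (b) and 2069 (c) CPM in iKD2 Dox-, and 2611 (a) and 2422 (b) CPM in iSCR Dox+. The 5 libraries with Dox were all above the other two. The log2 fold change was 0.29 (SE 0.14, unadjusted p = 0.0498, adjusted p = 1).

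ATF3, a bZIP transcription factor, is both an immediate early gene and a target of the integrated stress response. It was at 401 (a), 286 (b) and 449 (c) CPM in iKD2 Dox+, 221 (b) and 240 (c) CPM in iKD2 Dox-, and 380 (a) and 257 (b) CPM in iSCR Dox+. The libraries without Dox were lowest, and the 2 groups with Dox overlapped each other. The log2 fold change was 0.72 (SE 0.24, unadjusted p = 0.00792, adjusted p = 1) and stayed short of the threshold in all 14 alternatives. ATF4, the central factor of the integrated stress response, was at 242 (a), 236 (b) and 218 (c) CPM in iKD2 Dox+, 213 (b) and 166 (c) CPM in iKD2 Dox-, and 425 (a) and 318 (b) CPM in iSCR Dox+. ATF4 was thus highest in iSCR Dox+, where ATF3 was not.

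IER2, a nuclear regulator of transcription, was at 609 (a), 633 (b) and 580 (c) CPM in iKD2 Dox+, 347 (b) and 439 (c) CPM in iKD2 Dox-, and 534 (a) and 472 (b) CPM in iSCR Dox+. The 3 groups did not overlap at all, with iKD2 Dox+ highest and iKD2 Dox- lowest. Its log2 fold change between these was 0.63 (SE 0.19, unadjusted p = 0.00377, adjusted p = 0.885), and DESeq2 gave an adjusted p of 0.0138.

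KLF6, a zinc finger factor of the Krüppel-like family, was at 390 (a), 402 (b) and 449 (c) CPM in iKD2 Dox+, 304 (b) and 159 (c) CPM in iKD2 Dox-, and 212 (a) and 276 (b) CPM in iSCR Dox+. It was the only one of the list that was higher in iKD2 Dox+ than in both other groups while these 2 overlapped each other. The log2 fold change against iKD2 Dox- was 0.84 (SE 0.26, unadjusted p = 0.00382, adjusted p = 0.885), and it ranged from 0.44 without iKD2 Dox- c to 1.38 without iKD2 Dox- b. DESeq2 gave an adjusted p of 0.0425.

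DUSP1, a phosphatase that switches off MAP kinases and so closes the feedback loop on this programme, was at 359 (a), 405 (b) and 551 (c) CPM in iKD2 Dox+, 495 (b) and 559 (c) CPM in iKD2 Dox-, and 678 (a) and 498 (b) CPM in iSCR Dox+. The 2 lowest libraries were iKD2 Dox+ a and b, and the library labelled iKD2 Dox+ c lay among the controls. Its log2 fold change of -0.26 (95% CI -0.71 to 0.18, adjusted p = 1) was the only one below 0 in this comparison, and it was -0.47 without the library labelled c.

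**Figure D2:**
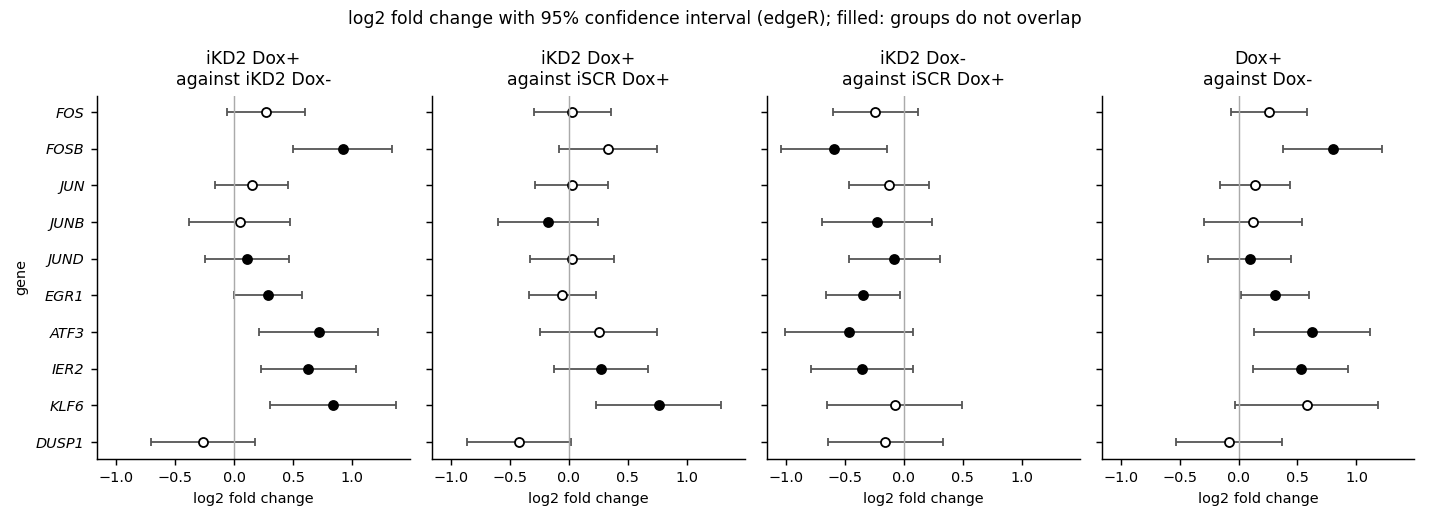
log2 fold change (horizontal axis) with its 95% confidence interval from edgeR for each of the 10 genes (vertical axis) in 4 comparisons, filled where the libraries of the 2 groups did not overlap. Against iKD2 Dox- the values of 9 genes are above 0, while against iSCR Dox+ they scatter around 0 apart from KLF6 at 0.76.

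The second comparison set iKD2 Dox+ against the scramble line, also with Dox. Here the list was centred near 0, with a median log2 fold change of 0.03 and values from -0.42 for DUSP1 to 0.76 for KLF6, while the median of all genes was 0.08. No member passed the adjusted p of 0.05, which 0.0262% of all genes did (6 of 22926). DESeq2 called none of the 10 among 798 genes. An unadjusted p under 0.05 was reached by 1 member and by 1540 of all genes (6.72%). Of the 1877 genes with a mean of at least 100 CPM, 101 were higher and 101 lower at that p. KLF6 (414 ± 31.4 CPM, SD, n = 3, against 244 ± 45.1 CPM, SD, n = 2) was the member with that p, at 0.00743 (adjusted p = 0.603). IER2 and KLF6 were above both iSCR Dox+ libraries in all 3 iKD2 Dox+ libraries, as were 11.3% of all genes, and JUNB was below in all 3, as were 9.23%. The log2 fold changes were 0.33 for FOSB (SE 0.20), 0.27 for IER2 (SE 0.19), 0.25 for ATF3 (SE 0.24), -0.06 for EGR1 (SE 0.14) and -0.18 for JUNB (SE 0.20). For FOS, JUN and JUND the log2 fold change of 0.03, 0.02 and 0.03 turned negative with DESeq2 size factors. The 95% CI of FOS, -0.30 to 0.36, leaves room for differences of that size in either direction. DUSP1 was at -0.42 (95% CI -0.86 to 0.02, unadjusted p = 0.0595, adjusted p = 0.699).

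The third comparison was between the 2 control groups, which differ in line and in Dox, with no METTL14 shRNA induced in either. All 10 genes had a lower value in iKD2 Dox- than in iSCR Dox+, from -0.08 for KLF6 to -0.59 for FOSB, with a median of -0.23 where that of all genes was 0.04. No member passed the threshold, which 0.0131% of all genes did (3 of 22926), and DESeq2 called none of the 10 among 453 genes. At an unadjusted p under 0.05 were 1020 of all genes (4.45%). Of the 1877 genes with a mean of at least 100 CPM, 50 were higher and 84 lower at that p. The 2 members at that p were FOSB (unadjusted p = 0.0126) and EGR1 (-0.35, unadjusted p = 0.0323), both with an adjusted p of 0.826. The others were at -0.46 (ATF3, SE 0.26), -0.36 (IER2, SE 0.21), -0.24 (FOS, SE 0.17), -0.22 (JUNB, SE 0.22), -0.16 (DUSP1, SE 0.23), -0.13 (JUN, SE 0.16) and -0.08 (JUND, SE 0.19). FOSB, JUNB, JUND, EGR1, ATF3 and IER2 were below in both iKD2 Dox- libraries, as were 13.2% of all genes and 21.3% of those with a mean of at least 100 CPM. Without scaling factors, JUNB and JUND overlapped and 4 of the 6 were left. The iKD2 Dox- libraries enter both this comparison and the first, and the values of the members in the 2 comparisons are therefore not independent.

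The fourth comparison pooled the 5 libraries with Dox against the 2 without. FOSB, JUND, EGR1, ATF3 and IER2 were higher in all 5 libraries with Dox than in both without, 5 of 10 members, where 2.87% of all genes and 7.30% of genes with a mean of at least 100 CPM were. The count cannot fall when a library is left out. It was 5 without the library labelled iKD2 Dox+ c, against 4.18% of all genes and 9.22% of those at 100 CPM or more. Without iKD2 Dox- c it was 8, against 7.80% and 15.9%. Without scaling factors JUND dropped out. The median log2 fold change of the list was 0.29, against 0.04 for all genes, and it was 0.17 without iKD2 Dox- b. The largest was that of FOSB, from 560 ± 140 CPM (SD, n = 2) without Dox to 973 ± 194 CPM (SD, n = 5) with Dox, or 0.80 (SE 0.20, 95% CI 0.38 to 1.22, unadjusted p = 6.38e-04, adjusted p = 0.636). ATF3 followed with 0.62 (SE 0.24), KLF6 with 0.58 (SE 0.29, 0.18 without iKD2 Dox- c) and IER2 with 0.53 (SE 0.20). EGR1 was at 0.31 (SE 0.14), FOS at 0.26 (SE 0.16), JUN at 0.14 (SE 0.15), JUNB at 0.12 (SE 0.20) and JUND at 0.10 (SE 0.17). The edgeR test called 0 of the 10 members and 0% of all genes, with 664 genes (2.90%) at an unadjusted p under 0.05, among them FOSB, EGR1, ATF3 and IER2. DESeq2 called FOSB (adjusted p = 0.0132) among 127 genes, and limma voom called 3 genes and no member. DUSP1 was the only member below 0, at -0.08 (95% CI -0.53 to 0.37), and it turned to 0.02 without iKD2 Dox+ a.

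**Figure D3:**
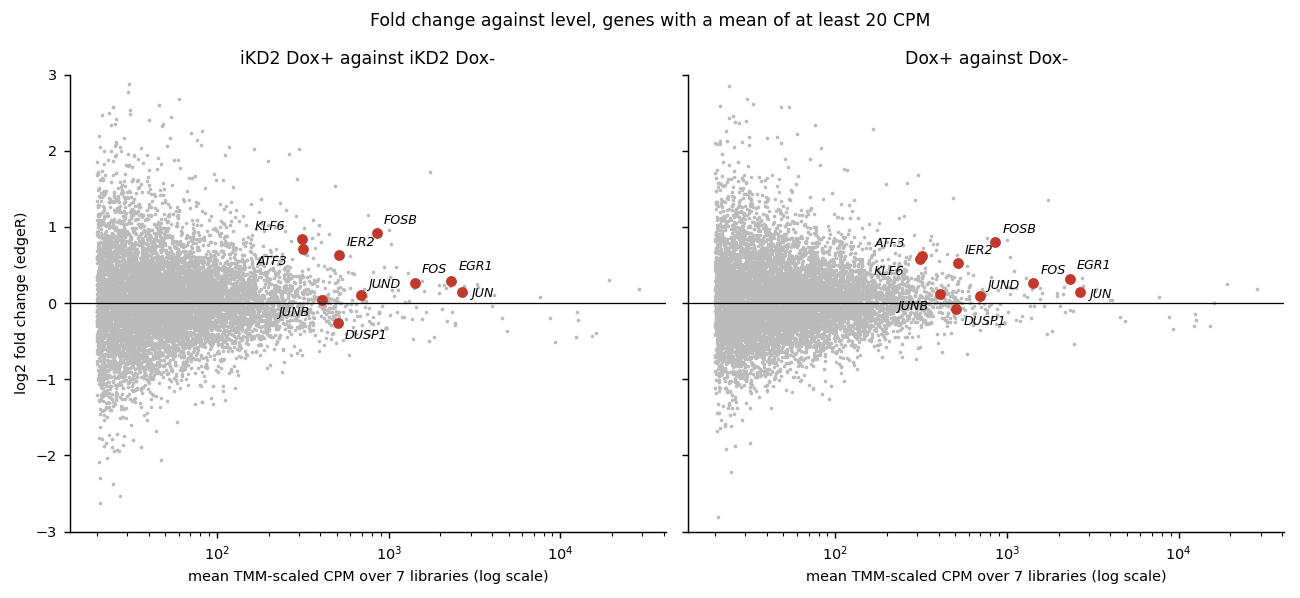
log2 fold change from edgeR (vertical axis) against mean TMM-scaled CPM over 7 libraries (horizontal log axis) for genes with a mean of at least 20 CPM, in the induced against the uninduced iKD2 line (left) and with Dox against without (right), with the 10 genes in red. FOSB, IER2, ATF3 and KLF6 lie at 0.63 to 0.92 on the left and 0.53 to 0.80 on the right, and 5 and 7 genes lie beyond the vertical axis.

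The 10 genes varied together across libraries to different extents. Over the 7 libraries, which share their groups and scaling, Pearson's r of log2(CPM + 1) was above 0 in 40 of the 45 pairs of members, with a median of 0.49, where pairs of the 1877 genes with a mean of at least 100 CPM had a median of 0.01. FOS, EGR1 and IER2 had the highest median r with the other 9, at 0.73, 0.71 and 0.71. DUSP1 stood apart with a median r of 0.01, and KLF6 and DUSP1 had the lowest r of any pair, -0.60. The genes most like the mean of the 10, among those with a mean of at least 20 CPM, were SRRM2 (r = 0.97), COL1A2 (0.97), MAFF (0.96), LCLAT1 (0.96) and STARD4 (0.95), over 7 libraries. For FOS alone they were AHSA2P, IL17RB and NXF1, all at 0.98. These were picked as the highest of 8594 genes over only 7 libraries, so that no test is attached to them.

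Further genes of the same programme were examined as a list of EGR and NR4A families with their corepressors (8 genes) and of other primary response genes (41 genes, 39 tested). IER3 was listed at 0 in all libraries and DUSP2 was too low to be tested. IER3 lies in the MHC region, for which annotations can hold copies under other IDs, and 6656 IDs had no symbol here, so that its 0 is not read as absence. Between iKD2 Dox+ and iKD2 Dox-, EGR2, EGR4, NR4A1, NR4A2 and NR4A3 were higher in all 3 iKD2 Dox+ libraries, 5 of 8, and 16 of 39 other primary response genes were as well, against the 8.72% of all genes and 16.2% of abundant genes given above. None of the 47 was lower in all 3. Their median log2 fold change was 0.83 in the EGR and NR4A list and 0.58 in the other. No gene of either list passed an adjusted p of 0.05 by edgeR. At an unadjusted p under 0.05 there were 17 of the 47, all 17 higher, and 3.72% of all genes in either direction. Of the 1877 genes with a mean of at least 100 CPM, 131 were higher and 60 lower at that p. DESeq2 called NR4A1, NR4A3, KLF4, KLF10 and ZFP36L1. The highest values were those of EGR4 (1.10, adjusted p = 1) and of KLF4, a Krüppel-like factor (1.69, SE 0.35, adjusted p = 0.135), which passed without a filter (adjusted p = 0.00899), with DESeq2 (1.27e-05) and in the fit of the 2 groups alone (0.0473). The lowest were those of NAB2, a corepressor of EGR proteins (-0.51), and ID2, an inhibitor of helix-loop-helix factors (-0.51). The nuclear receptor NR4A1 was at 658 (a), 455 (b) and 637 (c) CPM in iKD2 Dox+, 336 (b) and 395 (c) CPM in iKD2 Dox-, and 535 (a) and 555 (b) CPM in iSCR Dox+. KLF4 was at 116, 114 and 185 CPM, 48.7 and 37.1 CPM, and 76.8 and 91.6 CPM in the same order. Both genes were lowest in the 2 libraries without Dox, like FOSB and EGR1.

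Against iSCR Dox+, 0 of 8 EGR and NR4A genes and 10 of 39 other primary response genes were higher in all iKD2 Dox+ libraries, and 0 and 3 were lower, where 11.3% of all genes were higher and 9.23% lower. The extremes were NAB1 (0.18, SE 0.57) and NAB2 (-0.78, SE 1.07) in the first list, and CEBPD (2.13, SE 1.58) and KLF2 (-1.42, SE 1.09) in the second. CEBPD averaged only 4.03 CPM in iSCR Dox+. Between the control groups, 5 of 8 and 16 of 39 were lower in both iKD2 Dox- libraries, where 13.2% of all genes and 21.3% of those with a mean of at least 100 CPM were, with EGR4 (-1.22) and NPAS4, a gene known from neuronal activity (-1.44), lowest, and NAB1 (0.63) and CEBPD (0.82) highest. With Dox against without, 5 of 8 and 9 of 39 were higher in all 5 libraries, with EGR4 (1.15) and KLF4 (1.45) highest and NAB1 (-0.52) and ID2 (-0.57) lowest. Together, 14 of these 47 genes were higher in all libraries with Dox, or 29.8%, against the 2.87% and 7.30% given above. This count, too, follows from the comparisons of iKD2 Dox- with each of the groups with Dox. None of the adjusted p-values from edgeR passed 0.05 in these 3 comparisons. DESeq2 called ZFP36L2 against iSCR Dox+, NR4A3, KLF10, NPAS4 and ZFP36 between the controls, and NR4A3, KLF4 and KLF10 with Dox against without.

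**Figure D4:**
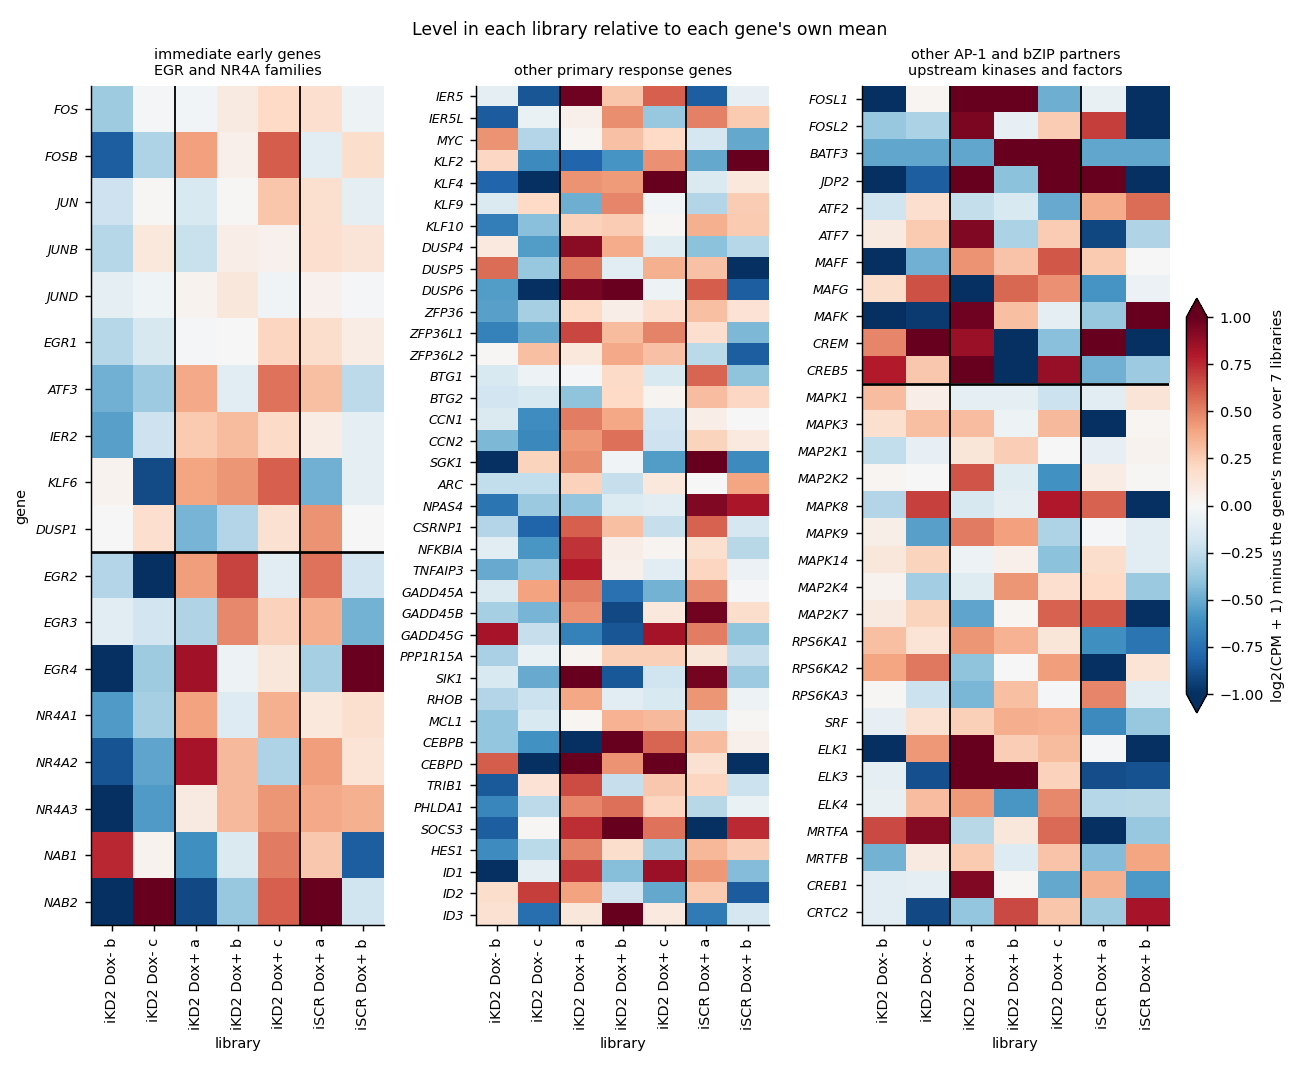
log2(CPM + 1) minus the mean of each gene over 7 libraries (colour, blue low and red high, limited at 1 unit) for the tested genes of 5 lists (rows) in each library (columns, groups divided by vertical lines). The 2 iKD2 Dox- columns are blue for most immediate early, NR4A and primary response genes, and mixed for the upstream kinases and factors in the right panel.

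Partners of Fos and Jun were less abundant and more scattered. Of 11 tested genes of other AP-1 and bZIP partners, 4 were higher in all iKD2 Dox+ libraries than in both iKD2 Dox- libraries. These were FOSL2, JDP2, MAFF and MAFK, and MAFF and MAFK were also higher in all 5 libraries with Dox. Of all genes, 8.72% and 2.87% were higher in the same 2 ways, and of those with a mean of at least 100 CPM, 16.2% and 7.30%. MAFF, a small Maf protein, was at 141 (a), 126 (b) and 159 (c) CPM in iKD2 Dox+, 46.7 (b) and 73.5 (c) CPM in iKD2 Dox-, and 124 (a) and 103 (b) CPM in iSCR Dox+. JDP2, a Jun dimerization protein, had the highest value against iKD2 Dox- (2.22, SE 1.40) and with Dox against without (2.12), and CREM, a cAMP-responsive modulator, the lowest (-1.005 and -0.63). Against iSCR Dox+ the extremes were FOSL1 (1.96, SE 0.98) and CREM (-0.79, SE 1.14), and between the control groups CREB5 (1.04, SE 1.04) and MAFK (-1.98, SE 1.03). No gene of this list passed an adjusted p of 0.05 by edgeR, and DESeq2 called MAFF against iKD2 Dox- (adjusted p = 0.00213).

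The kinases and factors that act upstream of immediate early genes were spread in both directions. Of 20 genes, 3 were higher and 3 lower in all iKD2 Dox+ libraries against iKD2 Dox-, with a median log2 fold change of 0.08. Of all genes, 8.72% were higher and 11.6% lower in this way. With Dox against without, 0 of the 20 were higher and 1 was lower in all libraries, with a median of 0.02. The shares of all genes were 2.87% and 5.13%. ELK3, a partner of serum response factor, was highest in the comparisons against iKD2 Dox- (1.56, SE 1.09), against iSCR Dox+ (2.08, SE 1.12) and with Dox against without (1.04, SE 1.06). Its mean levels were low, at 21.6 CPM in iKD2 Dox+, 7.31 CPM in iKD2 Dox- and 5.11 CPM in iSCR Dox+. MRTFA, a coactivator of serum response factor, was lowest in the first and the last (-0.63 and -0.97) and highest between the controls (1.69), with levels of 85.5 and 102 CPM in iKD2 Dox- but 17.1 and 41.0 CPM in iSCR Dox+. RPS6KA3, a kinase downstream of ERK, was lowest against iSCR Dox+ (-0.25), and CRTC2, a CREB coactivator, was lowest between the controls (-0.83). By edgeR none of the 20 passed an adjusted p of 0.05, and DESeq2 called SRF, serum response factor itself, against iSCR Dox+ and MRTFA between the controls.

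Genes known to respond to AP-1 were taken as a list of possible outputs. Of 11 tested, 2 were higher in all iKD2 Dox+ libraries against iKD2 Dox- and none was lower, with a median of 0.40. The shares of all genes were 8.72% higher and 11.6% lower. PLAU, which encodes urokinase, was highest in this comparison (2.78, SE 0.70, adjusted p = 0.340) and with Dox against without (2.39), and lowest between the controls (-1.48). Its levels were 33.02 (a), 41.6 (b) and 79.7 (c) CPM in iKD2 Dox+, 10.3 (b) and 4.68 (c) CPM in iKD2 Dox-, and 21.9 (a) and 20.1 (b) CPM in iSCR Dox+. PLAU was the only 1 of the 11 that was higher in all libraries with Dox, and 0 were lower. The shares of all genes were 2.87% and 5.13%. PLAUR, the urokinase receptor, was highest against iSCR Dox+ (2.15). The lowest were CXCL8 against iKD2 Dox- (-0.45) and against iSCR Dox+ (-1.77), and VIM with Dox against without (-0.17), and SPP1 was highest between the controls (0.39). No gene of this list passed an adjusted p of 0.05 by edgeR, and DESeq2 called PLAU against iKD2 Dox- (adjusted p = 1.69e-04) and PLAUR against iSCR Dox+ (0.0123).

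Stress-related genes were taken as a pair of further lists. Of 11 tested heat shock genes, 2 were higher and 1 was lower in all iKD2 Dox+ libraries against iKD2 Dox-, with a median of -0.08. In all libraries with Dox, 0 were higher or lower. The shares of all genes were 8.72% higher and 11.6% lower in the first case, and 2.87% and 5.13% in the second. HSPA6 was at no more than 3 counts in any library. HSPA1A was at 0 counts in all libraries, and HSPA1B, the near-identical copy of HSPA1A, was at no more than 1.42 CPM. HSPA1A and HSPA1B lie in the MHC region, as IER3 does, and the same limit holds for them. HSPB1 was highest (0.95 and 0.61) against iKD2 Dox- and with Dox against without, BAG3, a cochaperone, against iSCR Dox+ (1.71) and between the controls (1.06). The lowest were HSPE1 (-0.67 and -0.90) in the comparisons of iKD2 Dox+, DNAJA1 between the controls (-0.29) and HSPH1 with Dox against without (-0.31). Of 8 integrated stress response genes, 2 (ATF4 and DDIT4) were higher and 1 (VLDLR) was lower in all iKD2 Dox+ libraries against iKD2 Dox-, with a median of 0.19. With Dox against without, ATF4 was higher and VLDLR lower in all libraries. The shares of all genes given for the heat shock genes hold here too. DDIT4 was highest against iKD2 Dox- (0.92) and iSCR Dox+ (1.30), ATF4 with Dox against without (0.61), and ASNS between the controls (0.76). ASNS was lowest against iKD2 Dox- (-0.36) and with Dox against without (-0.51), and ATF4 was lowest against iSCR Dox+ (-0.68) and between the controls (-0.97). No gene of these lists passed an adjusted p of 0.05 by edgeR. DESeq2 called BAG3, HSPB1, ATF4 and DDIT4 against iSCR Dox+ and ATF4 between the controls, and BAG3 also passed against iSCR Dox+ without a filter.

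Markers of cell types and further measures of the libraries are given beside these genes. The 7 mesenchyme markers summed to 631 to 1088 CPM in iKD2 Dox+, 259 to 387 CPM in iKD2 Dox- and 608 to 639 CPM in iSCR Dox+, lowest in iKD2 Dox-. COL3A1 made up most of each sum. It was the only 1 of the 7 that was higher in all libraries with Dox, as 2.87% of all genes were. The 12 β-like markers summed to 25735 to 29988 CPM in iKD2 Dox+, 34147 to 38069 CPM in iKD2 Dox- and 40241 to 40594 CPM in iSCR Dox+, and the 5 duct markers to 834 to 959, 430 to 563 and 484 to 574 CPM. INS and CHGA made up most of each β-like sum, and the other markers did not all follow it. Between the controls, 5 of the 12 were higher in both iKD2 Dox- libraries and 2 were lower. The shares of all genes were 19.9% higher and 13.2% lower. The 7 markers of other endocrine cells ranged from 10014 to 16369 CPM over all libraries. Endothelium, blood and pluripotent markers were at most 17.1, 76.0 and 62.3 CPM in sum, and HBB was at 0 in all libraries. The nuclear RNA MALAT1 was at 19448 to 23303 CPM in iKD2 Dox+, 15507 and 18413 CPM in iKD2 Dox- and 18454 and 19749 CPM in iSCR Dox+. NEAT1, the other nuclear RNA listed, was at 378 to 452 CPM in iKD2 Dox+, 199 and 402 CPM in iKD2 Dox- and 337 and 225 CPM in iSCR Dox+. For NEAT1 the iKD2 Dox- libraries thus overlapped both other groups. The 13 mitochondrially encoded mRNAs summed to 27586 to 28821, 24322 to 25959 and 24720 to 28565 CPM. Of the 13, 7 were higher in all iKD2 Dox+ libraries than in both iKD2 Dox- libraries. So were 8.72% of all genes and 16.2% of those with a mean of at least 100 CPM. The part of these measures in the levels of the immediate early genes was not tested.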

How the data were processed

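RNA-seq of sorted β-like cells was analysed from 7 libraries in 3 groups, taken from the sample labels, and no library was left out. The authors trimmed reads with fastp, quantified transcripts with Kallisto and summed them per gene with tximport. The deposited table holds their estimated counts per gene, unscaled. Software versions, annotation and strand setting are not given in the sources used here. The study describes its replicates as independent biological samples. Where they did not come from separate cultures, p-values measure only the spread between these libraries. Of 66025 gene IDs, 59369 had a symbol in the name table.

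After rounding and filterByExpr (by group, 22926 genes kept), counts were TMM-scaled and compared by the quasi-likelihood test of edgeR 4.0.16 in R 4.3.3, with 3 groups in one fit for 3 comparisons and 2 groups (with and without Dox) for the fourth. P-values are two-sided and adjusted by the Benjamini-Hochberg method over all genes tested. Standard errors come from the fold change (log2) and the square root of F, and 95% intervals follow from them. The common biological coefficient of variation was 1.14 in the fit of 3 groups and 1.22 in that of 2. Alternatives were DESeq2 size factors, 2 other filters, DESeq2 1.42.0, limma voom 3.58.1, other samples in the fit, a replicate block and each library left out in turn, with the genes tested held fixed in the last. Leaving out libraries or scaling factors in counts of groups that do not overlap was added after seeing the data.

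The 10 members and the other lists were chosen with earlier results of these data known, and no list is independent support. All members are named in every comparison. From the other pathway lists the highest and lowest log2 fold change among genes with a mean of at least 5 CPM are named. The genes of these lists given by library, and those named to spell out a small count, were chosen after their values were seen. Marker and mitochondrial lists are given by sums and counts, apart from the levels of INS, CHGA, PDX1, IAPP, G6PC2, GCG and HBB. The nuclear RNAs MALAT1 and NEAT1 are both given by level. Promoters are from RefSeq (GRCh38.p14) and were found for all 10 members, and transcript features are from GENCODE 29, for tested coding genes with at least 50 bases of 3′ UTR.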

Additional observations from a re-analysis of the deposited data

How the results depend on the processing

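At the adjusted p of 0.05, edgeR called 9 genes between iKD2 Dox+ and iKD2 Dox-, 6 between iKD2 Dox+ and iSCR Dox+, 3 between the controls and 0 with Dox against without. In the same order, the calls were 51, 66, 32 and 26 without a filter and 218, 798, 453 and 127 with DESeq2, and 2, 3 and 1 in the first 3 comparisons at a mean of at least 5 CPM. A fit of the 2 groups alone called 27 in the first, and in the last, limma voom called 3 and the fit of 3 groups 5. Leaving out each library gave 3 to 24, 3 to 187, 2 to 151 and 0 to 2 calls. Of the 10 immediate early genes, against 0, 1 was called without a filter (FOSB) and 3 with DESeq2 (FOSB, IER2 and KLF6) in the first comparison, and 1 with DESeq2 (FOSB) in the last. Of 560 values of the members, 536 kept their direction and 24 reversed. The causes were not tested.

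The replicate letters were not taken to pair the libraries, since the deviations of libraries with the same letter correlated at -0.03 to 0.02. With the letter as a replicate block the calls were 18, 15 and 8 in the first 3 comparisons, with 1 member called in the first (FOSB, 0.99, adjusted p = 0.0150), and the members' median between the controls moved from -0.23 to -0.35. Under the block, the log2 fold changes of NAB2 (0.19) and ASNS (0.079) reversed against iKD2 Dox-, those of FOS (-0.046), JUN (-0.082) and CXCL8 (1.54) against iSCR Dox+, and that of HSPH1 (0.031) with Dox against without.

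Under limma voom, NAB2 (0.079) against iKD2 Dox- and CXCL8 (1.96) against iSCR Dox+ reversed. Against iSCR Dox+, FOS, JUN and JUND were at -0.0011, -0.0076 and -0.00075 with DESeq2 size factors and at -0.0011, -0.0076 and -0.00077 with DESeq2.

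When each library was left out, direction depended on 1 library for several genes. Against iKD2 Dox- the ranges were -0.14 to 0.26 for JUNB, -1.34 to 1.61 for NAB2 and -0.72 to 0.12 for ASNS. Against iSCR Dox+ they were -0.077 to 0.13 for FOS, -0.11 to 0.15 for JUN, -0.016 to 0.060 for JUND, -0.0034 to 0.55 for ATF3, -1.87 to 1.54 for CREM, -0.27 to 0.85 for NAB1, -1.37 to 0.12 for NAB2, -2.19 to 0.35 for KLF2, -0.52 to 0.077 for RPS6KA3 and -2.92 to 9.75 for CXCL8. Between the controls they were -0.25 to 0.0045 for JUN, -0.62 to 0.32 for KLF6, -0.36 to 0.079 for DUSP1, -0.51 to 9.95 for CEBPD, -0.63 to 0.12 for DNAJA1, -0.16 to 3.89 for ASNS and -0.13 to 1.20 for SPP1, and -0.42 to -0.14 for the members' median. With Dox against without they were -0.066 to 0.33 for JUNB and -0.22 to 0.017 for DUSP1. The number of members higher in every library with Dox ranged from 5 to 8. This check was added after seeing the data and cannot lower the count. The share of all genes meanwhile rose from 2.87% to between 4.14% and 9.28%. For genes with a mean of at least 100 CPM, the share rose from 7.30% to between 9.16% and 17.3%.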
